A study of Mus musculus with 10 samples.

Results

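The immediate early genes described here are 9 protein-coding genes, Fos, Fosb, Jun, Junb, Atf3, Egr1, Ier2, Myc and Btg2, of the 24386 genes counted in every library. They were chosen by name, as genes whose RNA is short-lived, with earlier results of these data known. Newly made RNA was read by TT-seq (transient transcriptome sequencing), in which the RNA of 5 min is labeled with 0.5 mM 4-thiouridine, pulled down and sequenced. The cells were TX1072, a female mouse embryonic stem cell (ESC) line with 1 set of chromosomes from Mus musculus castaneus (Cast) and 1 from C57BL/6 (B6), in which doxycycline (DOX) acts on a promoter placed before the Xist gene of the B6 X chromosome. The design asked how transcription changes after Xist is switched on.

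The 5 groups were wild-type TX1072 cells after 0, 4, 8, 12 and 24 h in 1 µg/ml DOX, with 2 replicates each and 10 libraries in all. All groups, the 0 h group included, carry the inducible promoter and were grown in serum with LIF and 2i, that is PD0325901, which blocks the kinase MEK, and CHIR99021, which blocks GSK3. DOX was added 24 h after plating and no group was kept without it for as long, so that Xist RNA, DOX itself and further time in culture cannot be told apart. All values come from 1 line. The study describes its silencing data as means of biological duplicates, the labels do not say what the replicates share, and p values measure the spread between these libraries. Total counts ran from 18809046 to 22274929 per library. Xist had 31 to 32 counts at 0 h and 6348 to 14211 with DOX. The summed level of 10 ESC markers was 2932 to 3295 CPM (counts scaled to library size), against 2.97 to 5.95 CPM for 6 fibroblast markers, 0.0449 to 0.655 CPM for 3 neural markers and 4.22 to 7.35 CPM for 4 trophoblast markers. The summed levels of 4 mesoderm markers, mostly T, were 6.18 to 8.83 CPM, those of 6 primitive endoderm markers 9.93 to 14.7 CPM, and those of 4 primed epiblast markers, mostly Dnmt3b, 118 to 153.8 CPM. Sox2, a defining ESC gene, was listed at 0 in every library. Its whole span lies inside Sox2ot on the same strand, and the stated counting options do not include the one that counts a read pair that lies in more than 1 gene. None of the 9 immediate early genes is overlapped by another counted gene on either strand. The libraries at 0 h were the least alike, with a chi-square per degree of freedom of 11.22 between them, against 5.21 to 5.94 for the pairs at later times.

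Immediate early genes are transcribed within minutes of a growth factor or stress signal without need of new protein. In the best known route, ERK phosphorylates ternary complex factors bound with SRF at their promoters, and CREB and ATF proteins act at cAMP response elements. Most of their products are transcription factors, and their mRNAs often carry AU-rich elements that mark them for rapid decay. Fos and Fosb pair with the Jun proteins to form AP-1, which binds TGACTCA, and Atf3 belongs to the same basic leucine zipper class. Egr1 is a zinc finger factor, Ier2 a small nuclear protein, Myc the E-box factor that drives growth genes in ESCs, and Btg2 an antiproliferative protein that binds the CCR4-NOT deadenylase.

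Promoter sequence of the 250 bases before the transcription start was at hand from RefSeq (GRCm38.p6) for 6 of the 9 genes, Fos, Fosb, Jun, Junb, Atf3 and Btg2. The windows of Fos, Jun and Btg2 are shown because Fos lay close to the counting limit and Jun and Btg2 had the largest differences at 12 h. They are written 5′ to 3′ on the strand of the gene and end at the base before the start. Capitals mark matches on either strand to TGACGTCA (the cAMP response element), TGACG (a shorter piece of it, which overlaps it), TATAAA (the TATA element) and GGGCGG (the GC box).
Fos, chr12:85473640-85473889, plus strand: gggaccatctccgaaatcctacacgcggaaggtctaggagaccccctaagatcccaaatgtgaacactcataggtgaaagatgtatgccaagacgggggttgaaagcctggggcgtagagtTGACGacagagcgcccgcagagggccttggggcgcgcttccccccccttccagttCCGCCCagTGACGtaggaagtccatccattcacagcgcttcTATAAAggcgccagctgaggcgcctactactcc
Jun, chr4:95052223-95052472, minus strand: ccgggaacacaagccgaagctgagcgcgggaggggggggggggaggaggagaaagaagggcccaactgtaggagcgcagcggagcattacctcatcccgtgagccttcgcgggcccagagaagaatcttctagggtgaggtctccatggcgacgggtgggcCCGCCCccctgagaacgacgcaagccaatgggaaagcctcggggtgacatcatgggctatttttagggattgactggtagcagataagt
Btg2, chr1:134079156-134079405, minus strand: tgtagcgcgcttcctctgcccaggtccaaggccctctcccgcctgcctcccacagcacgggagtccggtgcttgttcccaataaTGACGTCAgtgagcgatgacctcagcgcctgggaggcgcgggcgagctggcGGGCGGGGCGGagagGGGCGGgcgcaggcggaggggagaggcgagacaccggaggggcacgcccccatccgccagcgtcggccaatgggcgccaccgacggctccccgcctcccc
TGACGTCA was found in Btg2 alone of the 6, 166 to 159 bases before the start, and in 1.62% of the 27025 promoter windows of this length. TGACG was found in Fos, Fosb, Junb, Atf3 and Btg2, and in 17.9% of all windows. TATAAA was found in Fos alone, 33 to 28 bases before the start, and in 13% of all windows. GGGCGG was found in 5 of the 6, with 5 matches in Atf3, 3 each in Fosb and Btg2 and none in Junb, and in 32.9% of all windows. TGACTCA, the AP-1 element (4.43% of windows), and the CArG box, the SRF element (1.4%), had no match in the 6 windows. Sequence further than 250 bases before the start was not searched, so that elements there would be missed. Only full matches were marked, and near matches such as TGACATCA in the Jun window were not. The GC content of the windows was 58.4% in Fos, 61.2% in Jun and 73.2% in Btg2, against a median of 52% over all windows.

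Nascent transcription of these genes ranged from near 0 to the upper part of the tested genes (the plot of levels by library shows each gene). Per kb of gene span, introns included, Ier2 was highest at 6.53 ± 0.956 CPM per kb (SD over the 10 libraries), and 93% of the 14525 genes with enough counts to test lay below it. Btg2 followed at 1.69 ± 0.373, Myc at 1.26 ± 0.156, Junb at 0.837 ± 0.338, Jun at 0.744 ± 0.278 and Atf3 at 0.666 ± 0.154 CPM per kb. The median of the tested genes was 0.988 CPM per kb, so that apart from Ier2 these genes stood close to the middle. The ranges over libraries separated Ier2 from Btg2. Btg2 exceeded Myc in 8 of 10 libraries, Myc exceeded Junb in 8, and Junb over Jun and Jun over Atf3 held in 5 of 10 each, so that these neighbors overlap within their spread. Fos was far lower, at 0.0561 CPM per kb, with Fosb at 0.0059 and Egr1 at 0.0014.

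In the following, counts are given in the order 0, 4, 8, 12 and 24 h. Fos, the founding member of the AP-1 Fos subunits, gave 5, 4, 1, 2 and 9 counts in replicate 1 and 8, 3, 1, 4 and 2 in replicate 2. The gene lies at chr12:85473901-85477270 (mm10, plus strand). Its 39 counts over the 10 libraries (95% Poisson interval 27.7 to 53.3) equal 0.189 CPM, where 3 counts, the limit that a count of 0 allows, correspond to 0.135 to 0.159 CPM in a library. The intervals cover counting error only, since duplicates of 1 molecule cannot be recognized. Fos was above 3 counts in 5 of the 10 libraries, with its highest counts at 0 h and in replicate 1 at 24 h, where the replicates also differed most. Fosb, its close relative at chr7:19302696-19310045 (minus strand), had 9 counts in all and was at 0 in 3 of the 10 libraries. Egr1, at chr18:34861207-34864956 (plus strand), had 1 count, in replicate 2 at 4 h, and was listed at 0 in the other 9 libraries. These 3 genes did not pass the filter on low counts, and a change with time was not detectable for them at this depth. Without the filter 19606 genes were tested, and neither Fos nor Fosb passed at any time. The lowest adjusted p of either gene against 0 h was 0.788, for Fos at 12 h (log2 change -1.03), in edgeR's quasi-likelihood test. The largest log2 change, -2.47 for Fos at 8 h, did not pass either.

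**Figure D1:**
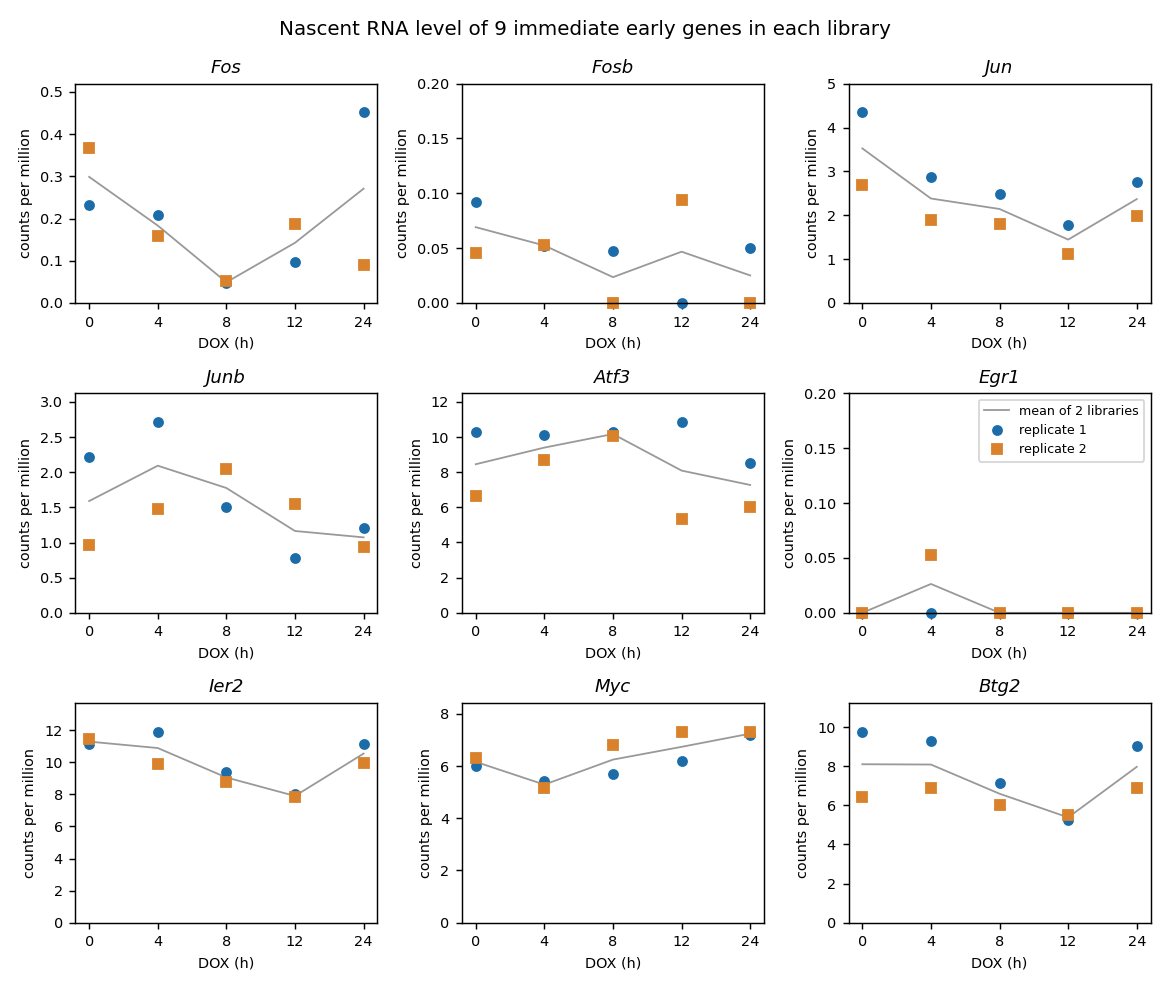
CPM (y axis, from 0, a separate scale for each gene) at 0, 4, 8, 12 and 24 h of DOX (x axis, evenly spaced) for the 9 genes. Circles and squares are the libraries of replicates 1 and 2 and the line is their mean. Jun, Ier2 and Btg2 are lowest at 12 h, Fos, Fosb and Egr1 stay under 0.5 CPM, and Jun and Atf3 are higher in replicate 1 at all 5 times.

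The 6 genes that could be tested were Jun, Junb, Atf3, Ier2, Myc and Btg2. None of the 6 passed an adjusted p of 0.05 against 0 h at any time in the fit without a replicate term. The test was edgeR's quasi-likelihood test, adjusted over all 14525 genes by Benjamini-Hochberg. DESeq2 called none either, but gave no adjusted p for Jun and Junb at 8 h and for Junb at 12 h. The share of all tested genes called by edgeR was 0.0138%, 0.193%, 0.95% and 1.85% at the 4 times and 1.25% in the joint test of all times. An unadjusted p under 0.05 was reached by 0, 2, 3 and 0 of the 6 (2.09%, 4.06%, 11.5% and 10.3% of all genes), and by 2 in the joint test (8.45%). The labels do not say what same-numbered libraries share, and their pairing was read from the data (r 0.1319 to 0.2525 between times). With a term for the replicate, 3 of the 6, Jun, Ier2 and Btg2, were called lower at 12 h. In that fit 2.99% of all tested genes were called lower at 12 h and 4.94% in either direction. That background rests on single libraries, since 718 genes were called at 12 h in this fit, 226 without replicate 1 at 12 h and 245 without replicate 1 at 0 h. The same 3 genes passed the joint test of all times with the replicate term (6.12% of all genes). At 4, 8 and 24 h the fit with the term called none of the 6 (0.0344%, 0.744% and 5.32% of all genes). An unadjusted p under 0.05 was reached in this fit by 1, 2, 3 and 1 of them at the 4 times (5.2%, 8.05%, 19.2% and 16.1% of all genes). The plot of change with DOX shows both fits side by side.

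**Figure D2:**
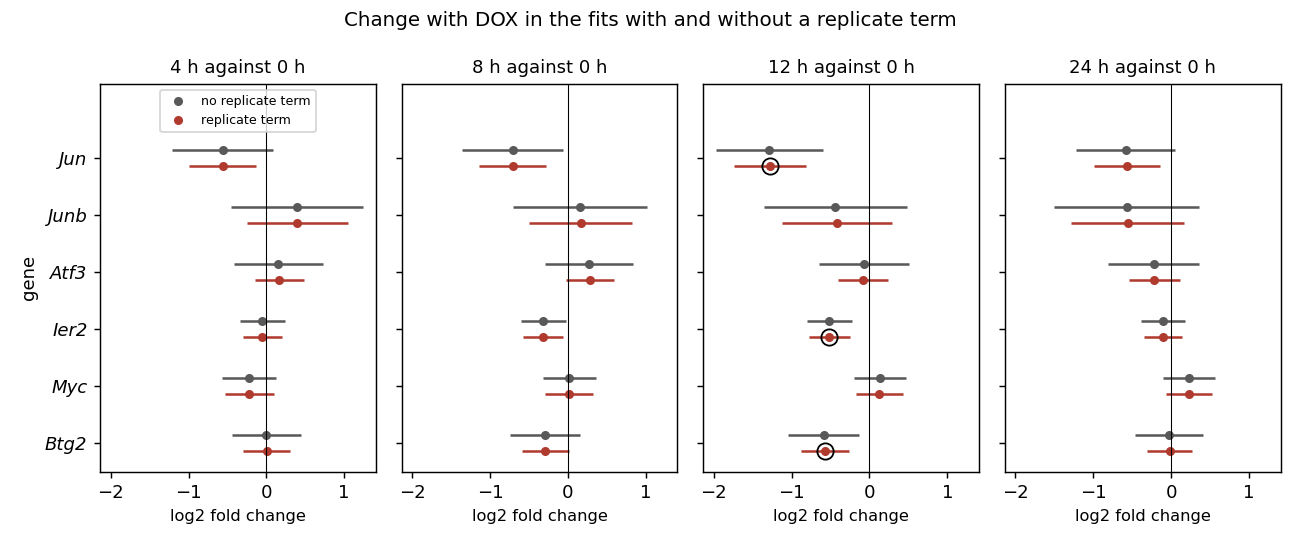
Log2 fold change against 0 h (x axis) of the 6 tested genes (y axis) at 4, 8, 12 and 24 h, with 95% confidence intervals, in the fit without (gray) and with (red) a replicate term. Black rings mark an adjusted p under 0.05. The rings fall on Jun (-1.28), Ier2 (-0.51) and Btg2 (-0.57) at 12 h in the fit with the term.

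Jun, the AP-1 subunit that can pair with itself as well as with Fos proteins, lies at chr4:95049036-95052222 (mm10, minus strand) and had 94, 55, 53, 36 and 55 counts in replicate 1 and 59, 36, 35, 24 and 44 in replicate 2. The libraries of 12 h and 0 h do not overlap, and within each time replicate 1 is the higher. The mean levels at the 5 times were 3.52 ± 1.17, 2.38 ± 0.691, 2.14 ± 0.498, 1.44 ± 0.456 and 2.37 ± 0.557 CPM (SD, n = 2 each). At 12 h the log2 change was -1.29 (SE 0.322), with an adjusted p of 0.0893 without the replicate term. With the term it was -1.28 (SE 0.229), a fold of 0.411, with an adjusted p of 0.000284. Over 15 other settings of the fit without the term the adjusted p at 12 h ran from 0.00413 to 0.48 and passed in 2, without the filter and without replicate 2 at 0 h (log2 change -1.61, adjusted p 0.0312). With the term, leaving out each library in turn gave 0.000101 to 0.0343, so that Jun at 12 h passed in all 10. At 24 h the log2 change of Jun was -0.58 (SE 0.298), with an adjusted p of 0.55 without the term and 0.123 with it. These are bulk libraries, in which fewer cells that transcribe a gene and less RNA per cell cannot be told apart.

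Ier2, at chr8:84661331-84662852 (minus strand), had 241, 228, 199, 163 and 222 counts in replicate 1 and 250, 188, 171, 167 and 222 in replicate 2. It was the most even of the 6 between replicates, and both libraries of 12 h lie below all others. Its means were 11.3 ± 0.206, 10.9 ± 1.42, 9.06 ± 0.44, 7.9 ± 0.135 and 10.6 ± 0.84 CPM. The change at 12 h was -0.51 (SE 0.137), with an adjusted p of 0.116 without the term (0.0679 to 0.515 over 15 other settings), and -0.51 (SE 0.128), a fold of 0.7, with an adjusted p of 0.0109 with it. Leaving out each library in turn with the term gave 0.0075 to 0.209, and the call was lost without replicate 2 at 0 h (adjusted p 0.115) and without replicate 1 at 12 h (0.209).

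Btg2, at chr1:134074865-134079155 (minus strand), had 211, 178, 152, 107 and 180 counts in replicate 1 and 141, 131, 118, 118 and 154 in replicate 2. Both libraries of 12 h lie below both of 0 h, and the replicates at 0 h differ by more than those at 12 h. Its means were 8.11 ± 2.34, 8.09 ± 1.7, 6.6 ± 0.792, 5.38 ± 0.188 and 7.97 ± 1.51 CPM. The change at 12 h was -0.59 (SE 0.216), with an adjusted p of 0.291 without the term (0.0692 to 0.799 over 15 other settings), and -0.57 (SE 0.155), a fold of 0.673, with an adjusted p of 0.0218 with it. Leaving out each library in turn with the term gave 0.00852 to 0.588, and the call was lost without replicate 1 at 0 h (0.456) and without replicate 1 at 12 h (0.588).

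All 3 genes that were lower at 12 h were closer to 0 h again at 24 h, a contrast chosen after these values were seen. From 12 to 24 h the log2 difference was 0.71 (SE 0.341) for Jun, 0.42 (SE 0.138) for Ier2 and 0.56 (SE 0.217) for Btg2. None of the 6 genes passed in this contrast, in which 0.00688% of all genes were called. The adjusted p was 0.566, 0.456 and 0.498 for the 3 genes without the replicate term and 0.135, 0.0954 and 0.0612 with it, where again none of the 6 and 1.48% of all genes were called. At an unadjusted p under 0.05 there were 2 of the 6 without the term (9.02% of all genes) and 3 with it (15.5%). DESeq2 called none, but gave no adjusted p for Jun and Junb in this contrast.

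Junb, the AP-1 subunit that often opposes Jun, lies at chr8:84976909-84978748 (minus strand) and had 48, 52, 32, 16 and 24 counts in replicate 1 and 21, 28, 40, 33 and 21 in replicate 2. The libraries of 0 h enclose 5 of the 8 later ones, and the log2 change was 0.40 (SE 0.398), 0.16 (SE 0.404), -0.44 (SE 0.43) and -0.57 (SE 0.436) at 4, 8, 12 and 24 h. Its 95% interval at 24 h, -1.5 to 0.361, is the widest of the 6 genes there. Atf3, a repressor induced by the integrated stress response and many other signals, spans chr1:191170297-191183333 (minus strand), the longest of the 9 at 13037 bases, and had 222, 194, 219, 221 and 170 counts in replicate 1 and 145, 165, 196, 114 and 134 in replicate 2. Its log2 change was 0.15, 0.27, -0.07 and -0.22 at the 4 times, with adjusted p values of 0.877 to 1, and the groups overlap at every time.

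Myc, at chr15:61985341-61990361 (plus strand), had 130, 104, 121, 126 and 143 counts in replicate 1 and 138, 98, 133, 156 and 163 in replicate 2. Both libraries of 24 h lie above both of 0 h and both of 4 h lie below them. Its means were 6.16 ± 0.213, 5.29 ± 0.194, 6.25 ± 0.783, 6.74 ± 0.785 and 7.25 ± 0.0935 CPM. The log2 change was -0.22 (SE 0.163) at 4 h and 0.23 (SE 0.155) at 24 h, with adjusted p values of 1 and 0.699, and the 95% interval at 24 h was -0.098 to 0.565. Over the 6 genes the median log2 change was -0.027, -0.138, -0.477 and -0.161 at 4, 8, 12 and 24 h, against -0.004 to 0.008 over all tested genes.

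Short genes as a class were shifted in the same direction at 12 h. The 1769 tested genes with a span under 5 kb, among them Jun, Junb, Ier2 and Btg2, had a median log2 change of -0.151 at 12 h, against 0.009 for the 12756 longer genes, and of -0.078, -0.116 and -0.018 at 4, 8 and 24 h. With the replicate term 59 of these short genes, 3.34%, were called lower at 12 h, near the 2.94% of the longer and 2.99% of all genes. Without the term the shares called lower were 0.565% of the short and 0.894% of the longer genes. The summed level of the 4 mesoderm markers was 8.28 to 8.83 CPM at 0 h and 7.88 to 8.68 CPM at 4 h, then 6.26 to 6.65 CPM at 8 h, 6.18 to 7.2 CPM at 12 h and 6.19 to 6.98 CPM at 24 h, and so was as low at 8 and 24 h as at 12 h. That of the 4 trophoblast markers was 4.22 to 4.25 CPM at 12 h, against 5.03 to 7.35 CPM at 0 h, 4.5 to 5.13 CPM at 8 h and 4.84 to 5.97 CPM at 24 h, while Hand1, a defining mesoderm gene, had at most 1 count in any library. The part of gene length or of these markers in the changes was not tested.

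Spread between replicates differed widely among these genes (the plot of replicate spread). The SD of log2 CPM within a time, pooled over the 5 times, was 0.582 for Junb, 0.418 for Atf3, 0.411 for Jun and 0.275 for Btg2, but 0.115 for Myc and 0.105 for Ier2. The median of all tested genes was 0.128, but most of them have more counts. The 3571 tested genes whose mean count lay in the range of these 6 had a median of 0.2, with quartiles of 0.147 and 0.269. Junb, Atf3 and Jun lie well above the upper quartile, Btg2 close to it, and Myc and Ier2 below the lower one. That range runs from a mean count of 31.5 in Junb to 205.1 in Ier2, so that the set is not matched to each gene. Counting error alone gives 0.274 for Junb, 0.111 for Atf3, 0.219 for Jun, 0.121 for Btg2, 0.127 for Myc and 0.102 for Ier2. By itself it would place Junb above the upper quartile and Myc and Ier2 below the lower one. The measured spread was thus 3.77 times the counting error in Atf3, 2.27 times in Btg2, 2.12 times in Junb and 1.87 times in Jun, and close to it in Ier2 (1.03 times) and Myc (0.9 times).

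In some of the genes the difference between replicates had 1 direction. Replicate 2 was lower than replicate 1 in 3 of the 6 genes by the replicate term (edgeR's quasi-likelihood test), where 6.38% of all tested genes were called lower and 11.7% in either direction. Jun was lower by 0.58 on the log2 scale (SE 0.144, adjusted p 0.00581) and replicate 1 was higher at 5 of 5 times, by 0.473 to 0.683. Atf3 was lower by 0.47 (SE 0.1, adjusted p 0.00145), also at 5 of 5 times, but unevenly, with a log2 difference of -0.04 at 8 h and -1.022 at 12 h. Btg2 was lower by 0.34 (SE 0.0962, adjusted p 0.0172) at 4 of 5 times. Junb was the least regular, with log2 differences of -1.188 at 0 h and 0.953 at 12 h and a replicate term of -0.26 (SE 0.216, adjusted p 0.487). Ier2 (-0.10, SE 0.0804) and Myc (0.11, SE 0.0956) did not pass.

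The replicate difference of Atf3 passed under every alternative tried (adjusted p 5.05e-06 to 0.0281 over 13). That of Jun was lost in DESeq2 (adjusted p 0.0833) and without either library of 0 h (0.0544 and 0.0518). That of Btg2 was lost in DESeq2 (0.126) and without either library of 0 h (0.155 and 0.151), 4 h (0.0597 and 0.0688) or 24 h (0.0642 and 0.068). The short genes had a median replicate difference of -0.074, and those with a transcript GC content of at least 55%, 669 genes including Jun, Junb and Ier2, of -0.121, against 0.004 for the longer genes. The labels do not say what replicates 1 and 2 share, and the source of the difference was not tested.

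**Figure D3:**
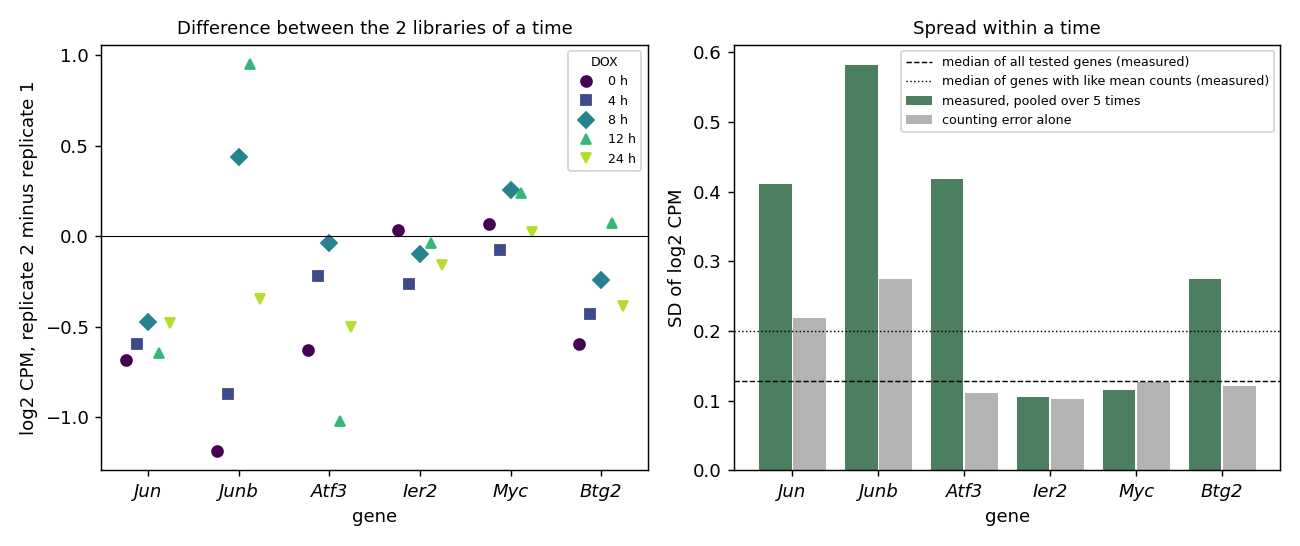
Left, log2 CPM of replicate 2 minus replicate 1 (y axis) for each gene (x axis), with 1 symbol for each time. Right, the SD of log2 CPM within a time, pooled over the 5 times (green bars), beside the SD from counting error (gray bars) and the medians of all tested genes (dashed line, 0.128) and of those with mean counts in the range of the 6 (dotted line, 0.2). All 5 symbols of Jun and Atf3 lie below 0, and Ier2 and Myc show a spread near the counting error.

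Both alleles of these autosomal genes could be followed where read pairs covered a base that differs between B6 and Cast. Atf3, Ier2, Myc and Btg2 had at least 10 allelic counts in every library and could be tested. The 2 alleles of an autosomal gene lie in the same cells and so see the same medium, DOX and culture time, while Xist acts from the B6 X chromosome in cis. The B6 share of the allelic counts over all autosomal genes was 0.5185 to 0.5213 in the 10 libraries. The share changed with DOX in none of the 4 genes at any time (edgeR's quasi-likelihood test on both alleles), where 0.361%, 1.67%, 2.16% and 2.63% of all 11906 genes were called at 4, 8, 12 and 24 h. These 11906 genes include X-linked genes, which Xist silences on the B6 allele, and shares over autosomal genes alone are not given. At an unadjusted p under 0.05 there was 1 of the 4, Btg2, at each of the last 2 times (7.39% and 8.05% of all genes) and none before (5.01% and 5.89%).

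The B6 share of Btg2 in time order was 0.394 ± 0.0462, 0.502 ± 0.0148, 0.5 ± 0.0293, 0.545 ± 0.0643 and 0.513 ± 0.078 (SD, n = 2). Both libraries of 0 h lie below all later ones. Its log2 B6 to Cast ratio differed from 0 h by 0.60, 0.59, 0.85 and 0.69, with adjusted p values of 0.994, 0.921, 0.358 and 0.491. Myc was lower from B6 in all 10 libraries, with a share of 0.265 to 0.469 and a median of 0.396. Relative to the autosomal total its mean log2 B6 to Cast ratio was -0.79 (SE 0.153, adjusted p 2.07e-06), and that of Atf3 was -0.48 (SE 0.0837, adjusted p 1.78e-07, share below the autosomal one in 9 of 10 libraries). Such inequality is common in this hybrid, since 71.3% of all genes tested were called and 35.5% lower in B6. Btg2 (-0.18, adjusted p 0.121) and Ier2 (-0.22, adjusted p 0.129) did not pass, and Ier2 passed without replicate 2 at 0 h (0.0237) or replicate 1 at 4 h (0.039).

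Jun and Junb had too few allelic counts in single libraries to be tested. Over the 10 libraries Jun had 47 B6 and 49 Cast counts, a B6 share of 0.49 (95% Wilson interval 0.392 to 0.588). Junb had 30 B6 and 66 Cast counts, a share of 0.3125 (0.2285 to 0.411), an interval that lies below the autosomal share. Both intervals pool the counts of the 10 libraries and cover counting error only, so that a difference between alleles was not tested. Fos had 4 B6 and 5 Cast counts, Fosb 2 and 2, and Egr1 none. The plot of allelic share gives the 4 tested genes.

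**Figure D4:**
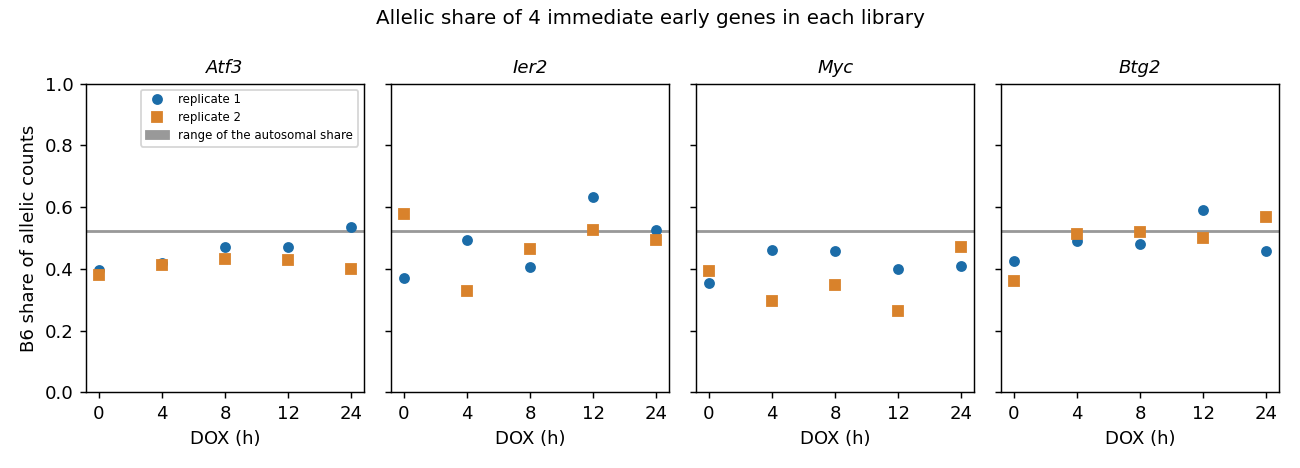
B6 share of the allelic counts (y axis, 0 to 1) of Atf3, Ier2, Myc and Btg2 at 0, 4, 8, 12 and 24 h of DOX (x axis, evenly spaced), with circles and squares for replicates 1 and 2. The gray band is the range of the autosomal share, 0.5185 to 0.5213. Myc lies below the band in all 10 libraries, and Btg2 lies lowest at 0 h.

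Other genes of the same class and pathway were taken from lists of named genes. Of 40 further immediate early genes 34 could be tested, and none passed at any time in either fit. Without the replicate term 1, 3, 3 and 0 of them had an unadjusted p under 0.05 at 4, 8, 12 and 24 h, all lower, against 2.09%, 4.06%, 11.5% and 10.3% of all genes, and their median log2 change was -0.055, -0.11, -0.18 and -0.029. With the replicate term the counts were 3, 5, 7 and 2 of the 34, against 5.2%, 8.05%, 19.2% and 16.1% of all genes. Of these, 2 were higher at 4 h, 1 was higher at 24 h, and those at 8 and 12 h were lower. At 12 h these counts are near the background in both fits. Gadd45b, a growth arrest and stress gene, differed by -0.33 at 24 h (SE 0.173, adjusted p 0.55), and Dusp4, an ERK phosphatase, by -0.46 at 24 h (SE 0.248, adjusted p 0.583). The low level of Fos and Egr1 was shared by Egr2, listed at 0 in every library, Egr4 with 1 count, Egr3 with 3, Nr4a3 with 30 and Fosl1 with 39 over the 10 libraries. Not all genes of the class were low: Mcl1, an antiapoptotic gene, had 46.8 CPM per kb and Klf2, a Krüppel-like factor of the naive ESC network, 18 CPM per kb.

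Of 12 AP-1 and ATF partners 11 could be tested and none passed without the replicate term. With it 1 of the 11 was called at 24 h, where 5.32% of all genes were. Creb5, a CRE-binding leucine zipper factor, was lower at 24 h (-0.66, SE 0.158, adjusted p 0.00627, against 0.0779 without the term), from 8.1 ± 0.778 CPM at 0 h to 5.09 ± 1.17 at 24 h. Jund, the Jun protein usually expressed in unstimulated cells, differed by -0.23 at 24 h (SE 0.266, adjusted p 0.86, with the term 0.592). Its largest difference, picked after the values were seen, was at 12 h and did not pass. It was -0.57 there without the term (adjusted p 0.443) and -0.55 with it (adjusted p 0.0636). Atf4, the leucine zipper factor of the integrated stress response, was at 28.1 CPM per kb. Of the 11 genes of the Myc network all were tested and none passed without the term. With it 1 of the 11 was called at 12 h and 1 at 24 h, where 4.94% and 5.32% of all genes were. Mycn, the paralog of Myc that ESCs also use, was lower at 12 h (-0.30, SE 0.0755, adjusted p 0.0131, against 0.132 without), with 64.3 ± 4.13 CPM at 0 h and 52.3 ± 0.646 at 12 h. Mxi1, a Max partner that opposes Myc, was higher at 24 h with the term (0.24, SE 0.0692, adjusted p 0.0314, against 0.136 without). Mxd3 (-0.44, SE 0.28) and Mycl (0.36, SE 0.282) did not pass at 24 h.

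Of 18 genes of SRF and ERK signaling 17 could be tested and none passed without the replicate term. Elk1, a ternary complex factor, was listed at 0 in every library, and its whole span is overlapped by Btbd35f15 on the same strand. With the term 1 of the 17 was called, at 24 h (5.32% of all genes). Rps6ka3, an ERK-activated kinase encoded on the X chromosome, was lower at 24 h (-0.29, SE 0.0682, adjusted p 0.00435, against 0.0652 without). Elk4, another ternary complex factor, differed by 0.22 at 24 h (SE 0.0965, adjusted p 0.46). Of 16 listed BTG, deadenylase and AU-rich element binding genes 15 were in the tables and could be tested, and none passed without the term. With it 1 of the 15 was called, at 12 h (4.94% of all genes). Btg1, the closest paralog of Btg2, was lower at 12 h (-0.37, SE 0.0921, adjusted p 0.012, against 0.158 without), with 31.2 ± 2.75 CPM before DOX, 24.2 ± 2.97 CPM after 12 h and 30 ± 1.69 CPM after 24 h. Zfp36 (-0.24, SE 0.286) and Zfp36l2 (0.26, SE 0.171), which bind AU-rich elements, did not pass at 24 h.

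Of 10 heat shock genes, taken as a second class of rapidly inducible genes, 8 could be tested and none passed without the term. With the term 1 of the 8 was called at 12 h (4.94% of all genes) and from 12 to 24 h (1.48%). Hsph1, a cochaperone of Hsp70, was higher at 12 h (0.35, SE 0.0842, adjusted p 0.00917, against 0.305 without) and lower at 24 h than at 12 h (-0.37, SE 0.0844, adjusted p 0.0164). Hsp90aa1 (0.19, SE 0.108) and Hspb1 (-0.33, SE 0.25) did not pass at 24 h. The stress-inducible Hspa1a and Hspa1b had 16 and 51 counts over the 10 libraries, while Hspa8, expressed at all times in most cells, was at 151 CPM per kb.

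The genes most like the immediate early genes over the 10 libraries were found from the mean of the centered log2 CPM of the 6 tested genes. Among 10207 genes with a mean count of at least 100 the highest Pearson r was 0.956 for Fxyd6, 0.931 for Lage3, 0.92 for Jund, 0.917 for Tle3 and 0.913 for Uqcr10. Of these, Lage3 is encoded on the X chromosome. The profile they share was highest in replicate 1 at 0 h (0.406) and replicate 1 at 4 h (0.33), while replicate 2 stood at -0.092 and -0.079 at those times, so that the likeness includes the replicate difference as well as time. The points share library and depth, and the values are a description with no test.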

How the data were processed

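TT-seq was measured in 10 libraries of TX1072 ESCs, in 5 groups by hours of DOX, with time and replicate number read from the labels. In the study's methods, the authors used Cutadapt 1.16 for trimming, then aligned them with STAR 2.3.0 to mm10 with strain-specific bases masked, kept unique proper pairs with a mapping quality of at least 7 and at most 2% mismatches, split alleles with SNPSplit 0.3.2 and counted by strand over gene spans, introns included, with featureCounts 1.5.1. The submitters' processing notes also name TopHat2 2.1.0 and bedtools. The deposited values are raw counts per gene (all, B6 and Cast), and a deposited fraction, B6 over B6 plus Cast counts, which matched the counts within 5e-07. The authors added labeled and unlabeled spike-in RNAs to the lysates. No scaling of these counts by the spike-ins is stated, so that a change shared by all genes would not be seen. Counts without molecular identifiers include duplicates.

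Counts were fitted with edgeR 4.0.16 in R 4.3.3 (TMM, filterByExpr, quasi-likelihood) over all 10 libraries, adjusted by Benjamini-Hochberg over 14525 genes with a threshold of 0.05. CPM were TMM-scaled, and log2 CPM used a prior count of 0.5. Alleles were fitted with a term for each library on genes with at least 10 allelic counts in every library (11906 genes), with the autosomal total of each allele as library size. Deviations of same-numbered libraries correlated between all 10 pairs of times across genes (r 0.1319 to 0.2525), a pairing read from the data. A fit with a replicate term is therefore given where it changes a call. Alternatives were DESeq2 1.42.0, other size factors, no filter, other prior counts, other allelic minimums, only the groups compared, and leaving out each library. Scripts were tested on simulated data.

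The 9 genes and the lists were chosen with earlier results of these data known. From each list the text names genes that passed, otherwise the 2 with the largest change at 24 h, and levels of genes near 0 or among the highest chosen after their values were seen. The comparison of 24 with 12 h, the fits with the replicate term that leave out a library, the classes by gene span, GC content and mean count and the TGACG search were also chosen after seeing the data. Coordinates are mm10, and promoters are RefSeq GRCm38.p6.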

Additional observations from a re-analysis of the deposited data

How the results depend on the processing

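Counts of immediate early genes called kept within 1.5 times under every alternative except these. The genes called at 12 h were 0 of 6 in the fit without a replicate term, 3 with the replicate block, which pairs the libraries (718 of all genes, against 138), and 1 of 9 without the filter (266 of all genes). Leaving out each library in turn gave 0 to 1 at 12 h without the block and 1 to 3 with it. In the joint test of all times the count was 0 without the block, 3 with the replicate block, 1 without the filter, and 1 to 4 with the block and 1 library left out (1 without replicate 1 at 0 h or replicate 1 at 24 h). The replicate term called 3 genes, DESeq2 called 1, and leaving out each library gave 1 to 3. Unequal alleles were called in 2 genes, in 1 of 2 with at least 50 allelic counts, and in 2 to 3 with a library left out. The block changed no other call of the 9 genes. Of 1012 values for single genes 933 stayed on the same side, 24 lost and 13 gained a call, and 42 changed sign, in each case without a call in either fit. Btg2 at 4 h was 0.0 in DESeq2, 0.0005 with DESeq2's size factors and 0.0019 with the replicate block. The other changes of sign came with a library left out, and the causes were not tested. The range of log2 change was then at 4 h -0.14 to 0.51 for Atf3, -0.28 to 0.34 for Btg2, -0.19 to 0.076 for Ier2 and -0.11 to 1.13 for Junb. At 8 h it was -0.026 to 0.62 for Atf3, -0.57 to 0.040 for Btg2, -0.34 to 0.88 for Junb and -0.12 to 0.14 for Myc. At 12 h it was -0.66 to 0.35 for Atf3 (with the block -0.48 to 0.20), -1.02 to 0.29 for Junb (with the block -1.24 to 0.28) and -0.0054 to 0.24 for Myc. At 24 h it was -0.52 to 0.13 for Atf3, -0.31 to 0.31 for Btg2 and -1.06 to 0.16 for Junb, and from 12 to 24 h -0.58 to 0.44 for Atf3, -0.53 to 0.45 for Junb and -0.016 to 0.23 for Myc. The B6 to Cast ratio of Ier2 ranged from -0.93 to 0.29, -0.82 to 0.38, -0.027 to 1.17 and -0.40 to 0.80 at 4, 8, 12 and 24 h, and that of Myc from -0.52 to 0.49, -0.18 to 0.48 and -0.75 to 0.14 at 4, 8 and 12 h. Over all genes the counts moved more. The 28 called at 8 h became 50 in DESeq2, 53 without the filter, 108 with the block, 7 with only the groups compared, and 5 and 6 without either library of 8 h and 13 without replicate 1 at 0 h. The 138 at 12 h became 84 with only the groups compared, 53 without either library of 12 h, 81 without replicate 1 at 0 h and 222 without replicate 2 at 0 h. The 269 at 24 h became 773 with the block and 131 and 135 without either library of 24 h. The 181 of the joint test became 280 in DESeq2, 385 without the filter, 889 with the block and 117 without replicate 1 at 24 h, and the 889 became 548 and 576 without either library of 24 h. The 1703 of the replicate term became 920 in DESeq2 and 847 and 856 without either library of 0 h. The 1 gene from 12 to 24 h became 22 in DESeq2, 19 without the filter and 215 with the block. Depth limits Fos, Fosb and Egr1, with 39, 9 and 1 counts over the 10 libraries, and the alleles of Jun and Junb.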
